A study of Mus musculus with 5 samples.

Results

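Granins and the enzymes that process prohormones were followed as mRNA in spheres grown from the postnatal mouse adrenal. The 10 genes were chosen by name, with earlier results of these data known, from the deposited table of 23903 gene symbols. They are 7 granins (*Chga*, *Chgb*, *Scg2*, *Scg3*, *Scg5*, *Vgf* and *Pcsk1n*) and 3 processing enzymes (*Pcsk1*, *Pcsk2* and *Cpe*). Where a symbol had several RefSeq transcripts, the transcript with the highest mean was taken, which concerned *Scg3* only. All 10 were measured, and each was above the lowest value of the table in every library. Levels are given in FPKM (fragments per kilobase of transcript, scaled to the number of mapped reads). They were recovered from deposited log2 values with an inferred offset, so that all of them may be off by 1 constant factor. The authors had also applied quantile normalization between samples, so that a level partly reflects the rank of the gene within its library.

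Dissociated adrenal cells were separated on dishes coated with an antibody against L1CAM, an adhesion molecule of neural and chromaffin cells. Attached (L1CAM-positive) and unattached (L1CAM-negative) cells were then grown as spheres in serum-free medium with EGF and FGF. RNA of 2 L1CAM-positive libraries (numbers 25 and 31) and 3 L1CAM-negative libraries (numbers 25, 31 and 28) was sequenced. Numbers 25 and 31 are labelled as a mix of P0 and P2 mice, cultured for 8 and 5 days, and number 28 as P5 mice cultured for 8 days. The labels give the strain C57/bl6 for all libraries, whereas the methods describe OF-1 mice for the adrenal cultures. Neither says how many animals were pooled or whether libraries come from separate cultures, so the p-values cover only the variation among these 5 libraries, part of which may be technical. Panning enriches cells and does not purify them, and the days in culture and the age of number 28 cannot be told apart from that library itself.

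Dense-core granules of chromaffin cells store catecholamines together with peptides. Granins are acidic proteins that condense in the trans-Golgi network, help to form these granules and are themselves cut into peptides. Prohormones are cut after basic residues by the convertases PCSK1 and PCSK2, and carboxypeptidase E (CPE) then trims the basic residues from the new ends. The granin-like proteins SCG5 and proSAAS (from *Pcsk1n*) act on the convertases, SCG5 as the chaperone of PCSK2 and proSAAS as an inhibitor of PCSK1.

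Of these genes, 8 were higher in the L1CAM-positive fraction, 1 was lower (*Cpe*) and 1 did not pass the test (*Chga*). Over all genes tested, 11.6% were called higher and 10.01% lower with limma at an adjusted p under 0.05. As the 10 genes were chosen with earlier results known, these shares stand beside them as a description, and the set was not tested. The median log2 fold change of the 10 genes, L1CAM-positive over L1CAM-negative, was 3.73. Over all genes the median absolute log2 fold change was 0.16. In all 10 genes the 2 fractions did not overlap, which held for 48.9% of all genes. Each of the 10 genes reached p = 0.1 in a 2-sided exact permutation test, the smallest value that 2 against 3 libraries allow. The values of each library are shown in the plot of levels by library.

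**Figure D1:**
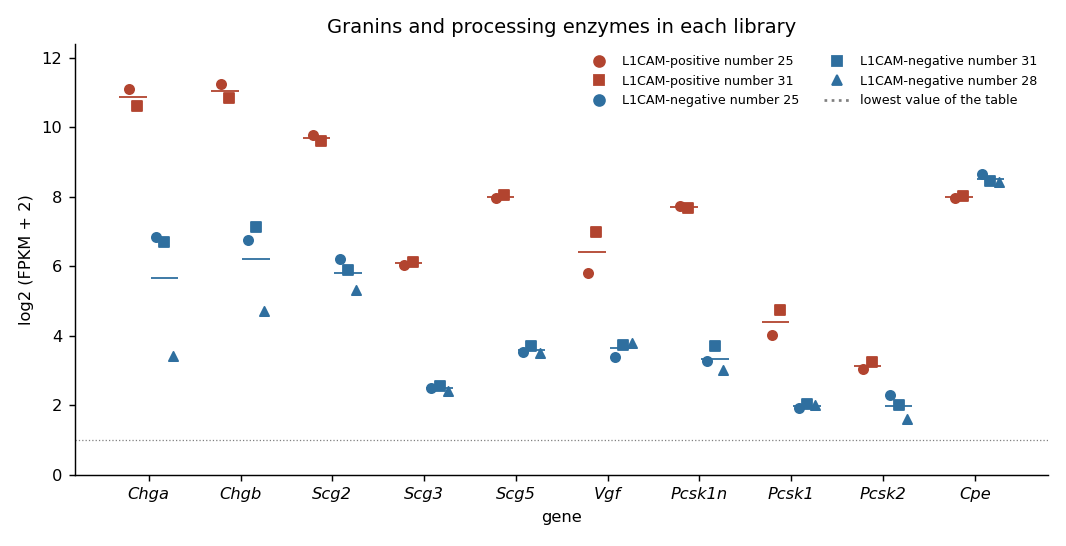
Log2 (FPKM + 2) of the 10 genes in each library, with L1CAM-positive libraries in red and L1CAM-negative libraries in blue; the marker shape gives the library number and short lines give group means (n = 2 and n = 3). Red lies above blue for 9 genes and below it for *Cpe*, and *Chga* and *Chgb* are lowest in number 28.

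The genomic context of these genes was read in RefSeq promoter windows of build GRCm38.p6, from 250 bases before to 50 bases after the start site. Windows were found for 8 of the 10 genes, not for *Vgf* and *Cpe*. The cAMP response element TGACGTCA, which CREB-family factors bind, was present in the windows of *Chgb*, *Scg2* and *Pcsk1*, as against 1.79% of all 32851 windows. It reads the same on both strands. The first 5 letters alone, TGACG on either strand, which include every whole element, were found in 7 of the 8 windows and in 20.8% of all windows. The stretches below show how these letters line up in 6 of the genes, with the whole element or its first 5 letters in capitals.
Chgb: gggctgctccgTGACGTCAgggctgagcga
Scg2: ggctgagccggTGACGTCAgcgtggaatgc
Pcsk1: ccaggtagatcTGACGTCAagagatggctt
Chga: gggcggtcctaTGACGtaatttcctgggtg
Scg3: cgctgggtcgcTGACGccatcctcacgcct
Scg5: aaggaggtaaaTGACGttcataggggtcga

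Each stretch is 30 bases long and is written 5′ to 3′ on the strand of the gene. The positions are chr2:132781559-132781588 (*Chgb*, plus strand), chr1:79440076-79440105 (*Scg2*, minus strand) and chr13:75089768-75089797 (*Pcsk1*, plus strand). Those of the other genes are chr12:102554886-102554915 (*Chga*, plus strand), chr9:75684068-75684097 (*Scg3*, minus strand) and chr2:113829248-113829277 (*Scg5*, minus strand). The stretches of *Chgb* and *Scg2* overlap an annotated exon in the GENCODE M21 annotation, and the other 4 do not. The windows of *Pcsk1* and *Scg3* belong to start sites that lie inside the coordinates given for these genes further on. In *Chgb*, *Scg2* and *Pcsk1* the element begins 72, 68 and 78 bases before the start site. The 5 letters begin 44 bases before it in *Chga*, 30 in *Scg3* and 175 in *Scg5*. Matches not shown above lie 20 bases and, on the other strand, 41 bases after the start site in *Scg5*. In *Pcsk1* a further match lies 50 bases before it, and in *Pcsk2* the only match lies 34 bases before it on the other strand. Among these windows *Chga* alone held the TATA box letters TATAAA on either strand (1 of 8, and 13.6% of all windows), 6 bases after its start site, and the GC box GGGCGG on either strand was found in 6 of 8 (35.7% of all windows). A match of letters is a description of the window and no measure of binding.

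**Figure D2:**
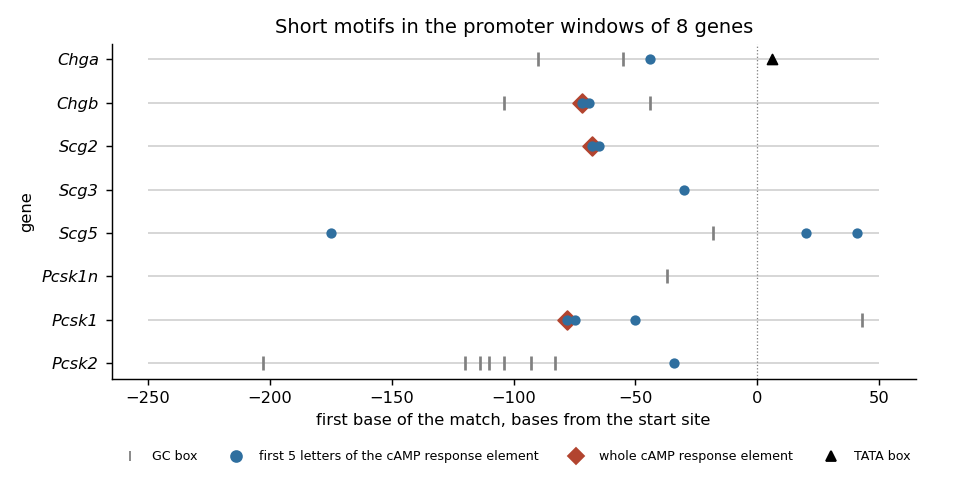
Matches of the 4 motifs in the promoter windows of 8 genes, by distance in bases from the start site, each window running from 250 bases before it to 50 after it. The red diamonds of the whole cAMP response element begin between 78 and 68 bases before the start in *Chgb*, *Scg2* and *Pcsk1*.

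The chromogranins were the most abundant of the 10 genes in L1CAM-positive spheres. *Chgb* (NM_007694, chromosome 2 from 132781642 to 132795079), which encodes chromogranin B, was at 2421 and 1837 FPKM in L1CAM-positive numbers 25 and 31, against 107, 139 and 24.4 FPKM in L1CAM-negative numbers 25, 31 and 28. By limma the log2 difference between the fractions was 4.83 ± 0.89 (SE), at an adjusted p = 0.0375. *Chga* (NM_007693, chromosome 12 from 102554941 to 102565027), which encodes chromogranin A, was at 2201 and 1575 FPKM in L1CAM-positive spheres, against 112, 102 and 8.69 FPKM in numbers 25, 31 and 28 of L1CAM-negative spheres. Both genes were thus lowest in number 28. *Chga* had the largest log2 fold change of the 10 genes (5.21, standard error 1.31), but did not pass the test (adjusted p = 0.0736 from limma). Its standard deviation on the log2 scale was 0.34 in L1CAM-positive (n = 2) and 1.93 in L1CAM-negative spheres (n = 3). Without number 28 the log2 fold change of *Chga* was 4.10 and passed (adjusted p = 0.0133 from limma). It also passed after centring on the median (adjusted p = 0.0418) and with genes at the lowest value in every library left out (adjusted p = 0.0312). In all, *Chga* passed in 4 of 16 alternatives. It did not pass without L1CAM-negative number 25 (adjusted p = 0.131) or 31 (adjusted p = 0.136). Nor did it pass with a robust variance (adjusted p = 0.128) or with days in culture as a term (adjusted p = 0.158). The log2 fold change of *Chgb* without number 28 was 4.09, against 4.83 with it. *Chgb* did not pass without L1CAM-positive number 25 (adjusted p = 0.184) or 31 (adjusted p = 0.160), nor without L1CAM-negative number 25 (adjusted p = 0.103) or 31 (adjusted p = 0.0753), all from limma.

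*Scg2*, which encodes secretogranin II, the precursor of secretoneurin (NM_009129, chromosome 1 from 79434366 to 79440026), followed the chromogranins in level. It was at 876 and 776 FPKM in L1CAM-positive spheres, against 72.0, 58.1 and 38.3 FPKM in L1CAM-negative numbers 25, 31 and 28. The log2 fold change of 3.87 (standard error 0.31) passed the test (adjusted p = 0.00771 from limma), but not without L1CAM-positive number 25 (adjusted p = 0.0583) or 31 (adjusted p = 0.0527). *Scg3* (chromosome 9 from 75643366 to 75685959) encodes secretogranin III, which binds chromogranin A and carries it to the granule membrane. Its higher transcript, NM_001164790, was at 64.0 and 67.8 FPKM in L1CAM-positive spheres, against 3.68, 3.93 and 3.29 FPKM in L1CAM-negative numbers 25, 31 and 28. limma gave a log2 fold change of 3.59 ± 0.07 (SE) and an adjusted p = 0.00287. The other transcript, NM_009130, was at 26.5 and 24.7 FPKM in L1CAM-positive spheres, against 3.83, 4.86 and 0.715 FPKM in L1CAM-negative spheres. NM_001164790 thus made up 70.7% and 73.3% of the *Scg3* level in L1CAM-positive spheres, against 49.0%, 44.7% and 82.2% in L1CAM-negative numbers 25, 31 and 28. These shares come from the authors' division of reads between overlapping transcripts and have no test here.

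*Vgf* (NM_001039385, chromosome 5 from 137025301 to 137033351) encodes a neuropeptide precursor of the granin family that is induced by nerve growth factor. It was at 54.2 and 125 FPKM in L1CAM-positive numbers 25 and 31, against 8.49, 11.2 and 12.0 FPKM in L1CAM-negative numbers 25, 31 and 28. On the log2 scale the fractions differed by 2.76 ± 0.42 (SE), with adjusted p = 0.0253 in limma. *Vgf* was the granin with the smallest log2 fold change and, on the log2 scale, with the widest gap between the L1CAM-positive libraries. Its call was lost without L1CAM-negative number 25 (adjusted p = 0.0936), 31 (adjusted p = 0.0883) or 28 (adjusted p = 0.0630).

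The convertase partners *Scg5* and *Pcsk1n* had closely similar levels to each other. *Scg5* (NM_009162, chromosome 2 from 113776313 to 113829091) was at 248 and 262 FPKM in L1CAM-positive spheres, against 9.68, 11.1 and 9.46 FPKM in L1CAM-negative numbers 25, 31 and 28. This is a log2 difference of 4.41 ± 0.08 (SE) in limma, with adjusted p = 0.00287. *Pcsk1n* (NM_013892, chromosome X from 7919822 to 7924410) was at 210 and 201 FPKM in L1CAM-positive spheres, against 7.78, 11.1 and 6.10 FPKM in L1CAM-negative spheres. Here limma gave 4.36 ± 0.24 (SE) on the log2 scale and an adjusted p = 0.00502. *Scg3*, *Scg5* and *Pcsk1n* passed whichever of the 5 libraries was left out.

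The convertases themselves were at much lower levels than their partners. *Pcsk1* (NM_013628, chromosome 13 from 75089420 to 75134861) was at 14.4 and 24.9 FPKM in L1CAM-positive numbers 25 and 31, against 1.81, 2.09 and 2.02 FPKM in L1CAM-negative numbers 25, 31 and 28. On the log2 scale limma gave 2.40 ± 0.25 (SE) and an adjusted p = 0.0118, and the call was lost without L1CAM-negative number 25 (adjusted p = 0.0582) or 31 (adjusted p = 0.0547). *Pcsk2* (NM_008792, chromosome 2 from 143546133 to 143816284) was at 6.23 and 7.41 FPKM in L1CAM-positive spheres, against 2.87, 2.02 and 1.07 FPKM in L1CAM-negative numbers 25, 31 and 28. It was the lowest of the 10 genes in L1CAM-positive spheres. The log2 difference of 1.17 ± 0.24 (SE), with adjusted p = 0.0486 in limma, is on the log2 (FPKM + 2) scale, which understates changes at such levels. With an offset of 0.1 in place of 2 it was 1.82 (adjusted p = 0.0815), and with an offset of 5 it was 0.76 (adjusted p = 0.0357). The call of *Pcsk2* was lost without L1CAM-positive number 25 (adjusted p = 0.176) or 31 (adjusted p = 0.214) and without L1CAM-negative number 25 (adjusted p = 0.0696) or 31 (adjusted p = 0.137).

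*Cpe* (NM_013494, chromosome 8 from 64592542 to 64693109) was the exception. It was at 246 and 258 FPKM in L1CAM-positive spheres, against 398, 349 and 345 FPKM in L1CAM-negative numbers 25, 31 and 28. The log2 difference was -0.52 ± 0.08 (SE) with adjusted p = 0.0287 in limma, and the L1CAM-negative level was 162% of the L1CAM-positive level in number 25 and 135% in number 31. Its level was above that of 98.6% and 98.7% of all genes in the L1CAM-positive libraries, and of 99.1%, 99.0% and 99.0% in the L1CAM-negative libraries. The mRNA of the trimming enzyme was thus abundant in both fractions. The call was lost without L1CAM-positive number 25 (adjusted p = 0.157) or 31 (adjusted p = 0.126) or L1CAM-negative number 31 (adjusted p = 0.0822), and the direction was the same in all alternatives. With days in culture as a term in limma, the calls of *Chgb* (adjusted p = 0.0966), *Vgf* (adjusted p = 0.0533), *Pcsk2* (adjusted p = 0.120) and *Cpe* (adjusted p = 0.0876) were lost. The same 4 calls were lost with a robust variance, at adjusted p between 0.0603 and 0.234.

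**Figure D3:**
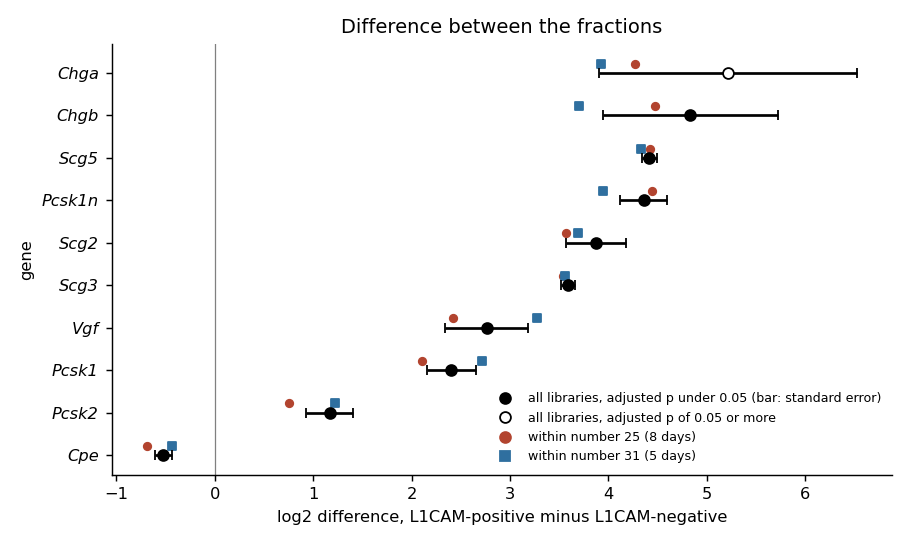
Log2 difference, L1CAM-positive minus L1CAM-negative, on the log2 (FPKM + 2) scale for each gene; black points are the estimates over all 5 libraries with their standard error (open: not past the threshold), and coloured points are the differences within numbers 25 and 31. *Cpe* lies at -0.52 and *Pcsk2* at 1.17, and the other 8 genes lie between 2.40 and 5.21.

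Numbers 25 and 31 share their age label and days in culture between the fractions, so the comparison was repeated within each. In both, 9 genes were higher and *Cpe* was lower in L1CAM-positive spheres. Within number 25 the linear level of L1CAM-positive over L1CAM-negative spheres was 27.1-fold for *Pcsk1n*, 25.6-fold for *Scg5*, 22.6-fold for *Chgb* and 19.7-fold for *Chga*. Within number 31 these folds were 18.05, 23.7, 13.2 and 15.4. *Scg2* and *Scg3* had 12.2-fold and 17.4-fold in number 25, and 13.4-fold and 17.2-fold in number 31. The folds of *Scg3* are those of its higher transcript. They were lower with both transcripts summed (90.5 against 7.51 FPKM in number 25 and 92.5 against 8.80 FPKM in number 31). *Vgf* had 6.38-fold in number 25 and 11.2-fold in number 31, *Pcsk1* 7.97-fold and 11.9-fold, and *Pcsk2* 2.17-fold and 3.66-fold. These folds come from 1 library on each side and have no error.

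The order of levels can be read on the FPKM scale, which is per length. In L1CAM-positive spheres the mean levels followed the order *Chgb*, *Chga*, *Scg2*, *Scg5*, *Cpe*, *Pcsk1n*, *Vgf*, *Scg3*, *Pcsk1* and *Pcsk2*. For *Scg3*, the order and the summed FPKM below use its higher transcript alone. Both of its transcripts summed were at 90.5 and 92.5 FPKM, against a mean of 89.7 FPKM for *Vgf*, so that the order of these genes depends on this choice. The ranges of the 2 libraries overlapped for the neighbours *Chgb* and *Chga*, *Scg5* and *Cpe*, and *Vgf* and *Scg3*, so that these were not told apart by their spread. In L1CAM-negative spheres *Cpe* came first with a mean of 364 FPKM and *Chgb* second with 90.3 FPKM, and their ranges did not overlap. There *Pcsk2* and *Pcsk1* came last, with means of 1.99 and 1.97 FPKM and overlapping ranges. *Chga* and *Chgb* together made up 72.9% and 66.5% of the summed FPKM of the 10 genes in L1CAM-positive spheres, against 30.3%, 35.0% and 7.35% in L1CAM-negative numbers 25, 31 and 28. *Cpe* made up 3.88% and 5.03% in L1CAM-positive spheres, against 55.0%, 50.6% and 76.6% in L1CAM-negative spheres.

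**Figure D4:**
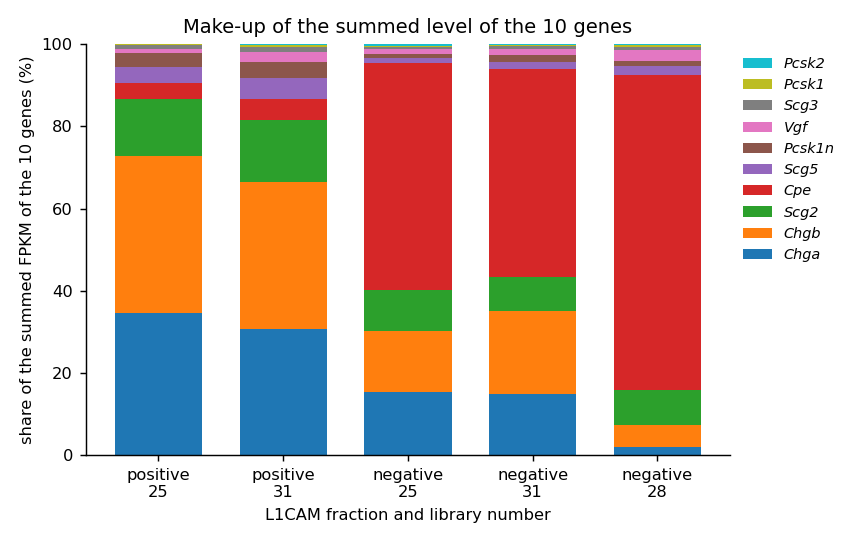
Share of each of the 10 genes in their summed FPKM (%) in each library, with the L1CAM-positive libraries on the left. *Chga* and *Chgb* fill 66.5% or more of the bar in L1CAM-positive spheres, and *Cpe* fills 50.6% or more in L1CAM-negative spheres.

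Ratios within a library compare the enzymes with their partners. *Scg5* over *Pcsk2*, the chaperone over its convertase, was 39.9 and 35.4 in L1CAM-positive spheres, against 3.38, 5.47 and 8.86 in L1CAM-negative numbers 25, 31 and 28. *Pcsk1n* over *Pcsk1*, the inhibitor over its convertase, was 14.6 and 8.07 in L1CAM-positive spheres, against 4.30, 5.34 and 3.02 in L1CAM-negative spheres. *Pcsk1* over *Pcsk2* was 2.31 and 3.36 in L1CAM-positive spheres, against 0.630, 1.03 and 1.89 in L1CAM-negative spheres. None of these 3 ratios overlapped between the fractions, with 2 against 3 libraries, and no ratio was tested. Of single genes 48.9% did not overlap either, and the share over ratios of 2 genes was not computed. *Scg5* over *Pcsk1n* did overlap, with 1.18 and 1.30 in L1CAM-positive spheres against 1.24, 0.995 and 1.55 in L1CAM-negative spheres. Of the other ratios taken, *Chga* over *Chgb* and *Chgb* over *Scg2* overlapped, and *Cpe* over *Pcsk1* and *Cpe* over *Chga* did not. In L1CAM-negative spheres the convertases were near 2 FPKM, so that their ratios rest on low values of unknown depth.

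The L1CAM-positive libraries differed in days in culture, with 1 library at each time and no test. *Vgf* was at 54.2 FPKM after 8 days (number 25) and 125 FPKM after 5 days (number 31), a ratio of 0.432. *Pcsk1* was at 14.4 and 24.9 FPKM, a ratio of 0.578. *Chga* and *Chgb* were higher after 8 days, with ratios of 1.40 and 1.32, and the other 6 genes lay between 0.840 and 1.13. The days in culture and the library cannot be told apart here.

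The labelled cell types were checked against markers. *L1cam* mRNA was at 48.1 and 40.4 FPKM in L1CAM-positive spheres, against 3.48, 3.82 and 5.28 FPKM in L1CAM-negative spheres (adjusted p = 0.00529 from limma). Of 8 chromaffin markers, 6 were called higher and *Th* (adjusted p = 0.0641 from limma) and *Pnmt* (adjusted p = 0.0696) did not pass, with summed levels of 3350 to 3901 FPKM against 66.1 to 292 FPKM. Glial markers were higher for 4 of 6 genes (summed 58.4 to 126.01 FPKM in L1CAM-positive against 6.04 to 11.0 FPKM in L1CAM-negative spheres) and neuronal markers for 4 of 5 (723 to 728 FPKM against 77.5 to 92.7 FPKM). Cortex markers were lower for 7 of 7 genes (1783 to 1845 FPKM against 7731 to 12859 FPKM), capsule and fibroblast markers for 2 of 5 (746 to 807 FPKM against 3775 to 5490 FPKM) and endothelial markers for 3 of 6 (35.7 to 36.5 FPKM against 193 to 369 FPKM). Of 5 macrophage markers 0 were called with limma (1 at an unadjusted p under 0.05), with sums of 7.46 to 9.73 FPKM against 17.2 to 71.5 FPKM. None of these markers was listed at 0 in all libraries of a fraction. Over all genes tested, 11.6% were called higher and 10.01% lower. In bulk RNA, fewer cells of a type and less RNA per cell cannot be told apart, and the part of these cell types in the values of the 10 genes was not tested.

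Levels in L1CAM-negative spheres were set beside those of the chromaffin markers in the same number. In number 25, the 8 markers were at 4.44% to 23.1% of their L1CAM-positive level (median 5.99%), and in number 31 at 5.21% to 10.9% (median 7.82%). The 23.1% is that of *Pnmt*, and the next highest marker in number 25 was *Th* at 9.03%. *Chga*, *Chgb*, *Scg2*, *Scg3*, *Scg5* and *Pcsk1n* were at 3.69% to 8.23% in number 25 and 4.23% to 7.59% in number 31. For *Scg3* these are the shares of its higher transcript alone. With both transcripts summed, its L1CAM-negative level was 7.51 against 90.5 FPKM in number 25 and 8.80 against 92.5 FPKM in number 31. Each of these summed levels is a larger share than the range given for that number. *Vgf* was at 15.7% and 8.94%, and *Pcsk1* at 12.5% and 8.38%. In number 25 *Vgf* and *Pcsk1* were thus above all markers but *Pnmt*. *Pcsk2* was at 46.1% in number 25 and 27.3% in number 31, above the highest of the 8 markers in both. *Cpe* was above its L1CAM-positive level in both.

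Number 28, the P5 library, split the 10 genes. There the chromaffin markers were at up to 39.6% of their mean in L1CAM-negative numbers 25 and 31 (median 24.8%). *Chga* was at 8.13% and *Chgb* at 19.8% of that mean, within the range of the markers. The low end of that range is *Pnmt* alone, at 0.157 FPKM in number 28. The next markers were *Th* at 16.2% and *Ddc* at 16.3%, so that *Chga* lay below all markers but *Pnmt*. *Pcsk2* was at 43.7%, *Scg2* at 58.9% and *Pcsk1n* at 64.4%. *Scg3* was at 86.6%, *Scg5* at 91.1%, *Cpe* at 92.4%, *Pcsk1* at 104% and *Vgf* at 121%. For *Scg3* this value depends on the transcript, since both of its transcripts summed were at 49.2%. The mean joins number 25, cultured for 8 days like number 28, with number 31, cultured for 5 days. Against number 25 alone, *Pcsk2* (1.07 against 2.87 FPKM) kept a smaller share than the marker *Dbh* (21.1 against 48.6 FPKM). Number 28 is 1 library, so that neither the split nor its link with the age of the mice was tested.

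**Figure D5:**
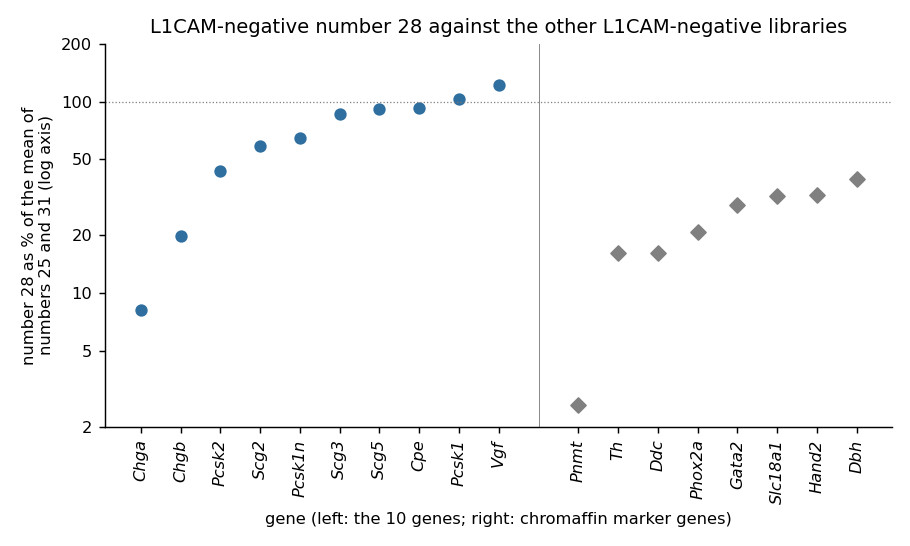
Level in L1CAM-negative number 28 as a percentage of the mean of L1CAM-negative numbers 25 and 31 (log axis, linear FPKM), for the 10 genes (blue) and 8 chromaffin markers (grey). *Chga* lies at 8.13%, below all markers but *Pnmt*, and *Chgb* lies at 19.8%, among the markers. *Pcsk1* and *Vgf* lie at 104% and 121%.

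Further genes of prohormone processing were taken from 6 lists with 43 genes, chosen with earlier results of these data known. Of these, 13 were higher and 7 lower in L1CAM-positive spheres, and 23 did not pass the test. Over all genes tested, 11.6% were higher and 10.01% lower, and the counts of each list below are to be read beside these shares. The shares include the 4354 genes at the lowest value in every library. No list was tested as a set. Of 7 other convertases, 2 were higher, 3 were lower and 2 did not pass, and their median log2 fold change was -0.18. *Pcsk5*, a convertase of the secretory pathway, differed by -2.18 on the log2 scale (limma, adjusted p = 0.00861) and was at 2.67 and 3.89 FPKM, against 25.3, 18.4 and 22.2 FPKM. *Furin*, the convertase of the trans-Golgi network found in most cells, had -0.72 (adjusted p = 0.0343), *Pcsk6* had 1.01 (adjusted p = 0.00742) and *Pcsk4* had 0.57 (adjusted p = 0.0126). Levels were low for *Pcsk6* (3.52 and 3.85 FPKM against 0.998, 0.622 and 0.869 FPKM) and *Pcsk4* (3.00 and 2.52 FPKM against 1.16, 1.29 and 1.16 FPKM). With an offset of 0.1 in place of 2, *Pcsk6* had 2.04 and *Pcsk4* had 1.13. *Mbtps1*, the site-1 protease, was at 76.9 and 67.8 FPKM against 72.5, 75.9 and 62.3 FPKM and did not pass (adjusted p = 0.968). *Pcsk6* passed whichever library was left out, but not with a robust variance (adjusted p = 0.0679). *Furin* failed to pass with each of the 5 left out (adjusted p between 0.0643 and 0.124), *Pcsk5* did not pass without L1CAM-positive number 25 (adjusted p = 0.0514), and *Pcsk4* did not pass without L1CAM-negative number 25 (adjusted p = 0.0639) or 31 (adjusted p = 0.0526).

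Of 7 relatives of *Cpe* in the same carboxypeptidase family, 2 were lower and 5 did not pass (median log2 fold change -0.29). *Aebp1*, a secreted matrix protein of this family, was at 23.9 and 25.2 FPKM in L1CAM-positive spheres, against 126.5, 123 and 199 FPKM in L1CAM-negative spheres (log2 fold change -2.48, adjusted p = 0.0121 from limma). For *Cpxm1* the log2 fold change was -1.15 (adjusted p = 0.0171). Of 5 enzymes that finish peptides, *Qpct*, which forms N-terminal pyroglutamate, and *Pam*, which amidates C-termini, were higher with log2 fold changes of 2.11 (adjusted p = 0.00529) and 1.06 (adjusted p = 0.0118). *Ctsl*, a cathepsin that also cuts prohormones, was lower with -0.69 (adjusted p = 0.0402). *Pam* was at 185 and 221 FPKM in L1CAM-positive spheres, against 88.9, 96.4 and 102 FPKM in L1CAM-negative spheres, so that this enzyme too was well expressed in both. *Qpct* passed whichever library was left out. *Aebp1* and *Ctsl* did not pass without either L1CAM-positive library (adjusted p between 0.0784 and 0.196) or without L1CAM-negative number 25 (adjusted p = 0.0501 and 0.0763), and *Ctsl* did not pass without L1CAM-negative number 31 (adjusted p = 0.113). *Cpxm1* passed only without number 28 (adjusted p = 0.0409), and *Pam* did not pass without L1CAM-positive number 31 (adjusted p = 0.0505) or L1CAM-negative number 25 (adjusted p = 0.0514) or 31 (adjusted p = 0.0555).

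Of 10 genes of the granule membrane and of granule formation, 5 were higher, none was lower and 5 did not pass (median log2 fold change 2.70). *Resp18*, a granule protein of endocrine cells, was at 315 and 378 FPKM in L1CAM-positive spheres, against 14.8, 17.8 and 13.5 FPKM in L1CAM-negative spheres (log2 fold change 4.33, adjusted p = 0.00373 from limma). *Cyb561*, which supplies electrons to the granule lumen, was at 797 and 600 FPKM, against 56.9, 51.3 and 23.0 FPKM (log2 fold change 4.02, adjusted p = 0.0149). *Rab2a*, a small GTPase used in granule maturation and in other trafficking, was at 145 and 141 FPKM against 135, 130 and 134 FPKM and did not pass (adjusted p = 0.0829). *Resp18* passed whichever library was left out, and *Cyb561* only without number 28 (adjusted p = 0.0131).

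Of 4 transcriptional regulators of neuroendocrine genes, *Insm1* and *St18* were higher, *Rest* was lower and *Creb1* did not pass. *Insm1*, a zinc-finger factor of endocrine cells, was at 123 and 110 FPKM in L1CAM-positive spheres, against 6.84, 7.22 and 0.802 FPKM in L1CAM-negative numbers 25, 31 and 28 (log2 fold change 4.28, adjusted p = 0.0255 from limma). *Rest*, the repressor of many neuronal genes, was at 3.06 and 3.38 FPKM, against 11.8, 13.2 and 12.2 FPKM (log2 fold change -1.46, adjusted p = 0.00467). The log2 fold change was 2.30 for *St18* (adjusted p = 0.00485) and 0.25 for *Creb1* (adjusted p = 0.225). *Rest* and *St18* passed whichever library was left out, and *Insm1* only without number 28 (adjusted p = 0.00985).

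Of 10 prohormone genes, which encode substrates of these enzymes, 2 were higher and 8 did not pass (median log2 fold change 0.23). *Npy* was at 606 and 1308 FPKM in L1CAM-positive numbers 25 and 31, against 89.4, 126.4 and 146 FPKM in L1CAM-negative numbers 25, 31 and 28 (log2 fold change 2.89, adjusted p = 0.0253 from limma). *Adm*, the adrenomedullin precursor, was at 196 and 242 FPKM, against 13.8, 11.7 and 5.45 FPKM (log2 fold change 4.23, adjusted p = 0.0102). *Cartpt* was at 105 and 139 FPKM against 40.5, 96.0 and 55.2 FPKM and did not pass (adjusted p = 0.222). *Npy* did not pass without L1CAM-positive number 31 (adjusted p = 0.0778), L1CAM-negative number 25 (adjusted p = 0.0854), 31 (adjusted p = 0.0880) or 28 (adjusted p = 0.0552), and *Adm* did not pass without L1CAM-positive number 25 (adjusted p = 0.0679) or 31 (adjusted p = 0.0709).

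Genes with the most similar pattern were sought by the root mean square difference of centred log2 values over the 5 libraries, among 6441 other genes with a mean log2 value of at least 4. Nearest to the mean profile of the 10 genes were *Tagln3* (difference 0.08), *Tspan13* (0.11), *Bex2* (0.11), *Lrp11* (0.13) and *Nsg1* (0.13). Nearest to *Cpe* were *Tmco1* (0.03), *Pkn2* (0.04), *Tmem168* (0.04), *Exosc3* (0.04) and *Naglu* (0.04). This is a description over 5 libraries of 2 fractions and has no test.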

How the data were processed

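RNA of 5 libraries of adrenal spheres (2 L1CAM-positive, 3 L1CAM-negative) was sequenced from stranded, poly(A)-selected libraries. The authors used STAR 2.6.1a (mm10) for alignment, Cufflinks for FPKM and limma for quantile normalization between samples. The deposited values are log2 FPKM, 1 per RefSeq transcript (32737 rows). The annotation release and the samples in the normalization are not given in the sources used here. The lowest value is 1, from which an offset of 2 was inferred. Linear FPKM were obtained by undoing the logarithm and subtracting the offset. If the logarithm was taken otherwise, FPKM may differ by a constant factor, which leaves ratios as they are. The depth is unknown, so no counting interval was computed.

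The 202 rows without a symbol were left out, and 23903 genes were tested, with no filter. Of these, 4354 are at the lowest value in every library. limma 3.58.1 (lmFit, eBayes with a trend) in R 4.3.3 gave 2-sided p-values. These were adjusted after Benjamini and Hochberg across the 23903 genes, with a threshold of 0.05. The fold change is L1CAM-positive over L1CAM-negative. The script was tested on simulated data. Where 1 L1CAM-positive library remained, its spread was assumed equal to that of the L1CAM-negative libraries. Members and lists were chosen with earlier results of these data known. Other genes named are, per list, the 2 with the largest called change in each direction and the 2 with the highest mean. Alternatives were other offsets (0.1, 5), filters, summed transcripts, normalizations, variance models, terms for library number and culture days, and leaving out each library. Coordinates and promoter sequences are from RefSeq, GRCm38.p6. Figures were made with matplotlib 3.10.9.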

Additional observations from a re-analysis of the deposited data

How the results depend on the processing

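The direction of all 10 genes was the same in all 16 alternatives. Of the 10, 9 were called higher with genes at the lowest value left out, under the stricter filter and after centring, and 7 with an offset of 0.1 or without the trend. With the robust variance and with days in culture as a term, 5 were higher and 0 lower (at an unadjusted p under 0.05 from limma, 9 and 8 higher, and 0 and 1 lower). With 1 library left out, between 4 and 8 were higher and between 0 and 1 lower (1 at an unadjusted p in each case). The library number as a block left 1 residual degree of freedom for the 2 shared numbers and gave 0 calls over all genes in limma (8 of the 10 genes higher and 1 lower, and 3999 and 4418 of all genes, at an unadjusted p under 0.05). Adjusted p of the 10 genes then lay between 0.0630 and 0.144. L1CAM-positive and L1CAM-negative deviations correlated at 0.15 in number 25 and 0.12 in number 31 over 16032 genes, and the labels do not say what the number marks. The deviations of the 2 L1CAM-positive libraries mirror each other, so that both correlations use the same L1CAM-positive contrast. That contrast is also the one between the days in culture, so the correlations cannot tell the number from the days. The block gave 0 of the other pathway genes higher and 0 lower (18 and 7 at an unadjusted p), the robust variance 8 and 3, and days in culture 10 and 3; leaving out 1 library gave 8 to 14 and 1 to 5. Over all genes, 2775 were higher and 2393 lower, the robust variance gave 797 and 352, days in culture 1727 and 1273, and leaving out 1 library 1301 to 2805 and 521 to 2942. The log2 fold change of *Mbtps1* (0.04) changed sign to -0.038 under the replicate block, and lay between -0.044 and 0.132 with 1 library left out (-0.038 without number 28). The cause of these changes was not tested. Low values such as those of *Pcsk1* and *Pcsk2* in L1CAM-negative spheres are limited by a depth that is unknown.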

Other observations

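Some genes of the same lists went the other way from the chromogranins in L1CAM-negative number 28; they were chosen after their values were seen. *Ptprn*, a granule membrane protein, was at 240 and 247 FPKM in L1CAM-positive spheres and at 63.9 FPKM in number 28, against 17.1 and 20.3 FPKM in L1CAM-negative numbers 25 and 31. *Adcyap1*, which encodes the peptide PACAP, was at 16.9 FPKM in number 28, against 1.95 and 1.65 FPKM in L1CAM-negative numbers 25 and 31, and at 1.79 and 0.854 FPKM in L1CAM-positive spheres. *Gal*, the galanin precursor, was at 14.1 FPKM in number 28, against 3.12 and 4.55 FPKM in the other L1CAM-negative libraries. Between the fractions limma gave an adjusted p of 0.0540 for *Ptprn*, 0.0633 for *Gal* and 0.577 for *Adcyap1*.

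Prohormone genes also differed between the L1CAM-positive libraries. *Penk*, the enkephalin precursor, was at 20.7 FPKM after 8 days (number 25) and 95.7 FPKM after 5 days (number 31), and *Gal* at 49.4 and 167 FPKM. *Npy* and *Vgf* were likewise lower after 8 days. This is 1 library at each time, and no difference between them was tested.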
